A study of Triticum aestivum with 27 samples.

Results

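The 150 genes described here were those read most strongly above both other varieties in spikes of the wheat variety Zhoumai18 at every time sampled. They were chosen from 108061 high-confidence genes placed on a chromosome, in a table of 153699 genes. For each variety and time, the mean FPKM (fragments scaled for transcript length and library size) of 3 replicates was increased by 1 and put on the log2 scale. A gene's score was its lowest such level among the 3 Zhoumai18 groups minus its highest level among the 6 groups of the other varieties, and the 150 highest scores were kept. The score therefore fixed the difference between varieties, which is given below as a description with no test.

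The RNA came from whole spikes of Triticum aestivum (bread wheat) cut at wax ripeness. There were 9 libraries of Zhoumai18, 9 of Baipimai and 9 of Shengsimai, with 3 libraries per variety at 0 h, 48 h and 96 h of a moist treatment at 22 °C and 95% relative humidity. The spikes were first soaked in water, and each spike was a replicate. The study took Zhoumai18 as highly susceptible to sprouting and the others as resistant, with white grain in Zhoumai18 and Baipimai and red grain in Shengsimai. With a single variety prone to sprouting, what belongs to that trait and what belongs to the variety cannot be told apart.

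Pre-harvest sprouting is the germination of grain on the mother plant in wet weather, and it depends on how deeply the ripening grain is dormant. Bread wheat carries an A, a B and a D genome, so most of its genes exist as closely related copies, called homoeologues, on the matching chromosomes of those genomes. Reads are counted at a copy only where they match the reference copy well, so a low count can come from little transcript, from a gene that is missing or from a sequence that differs from the reference, and these cannot be told apart in such a table. In whole spikes, fewer cells of a type and less RNA per cell cannot be told apart either.

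Library totals were 45590141 to 55765523 counts. Among the 18 libraries of Baipimai and Shengsimai, replicate 3 of Baipimai at 48 h had a count in the most genes of the list, 119 of 150, against 100 and 98 in its replicates, and the highest median FPKM over the list, 0.243 against 0.127 and 0.166. These genes took 0.319% to 0.362% of the counts of a Zhoumai18 library, against 0.0339% to 0.0502% in Baipimai and 0.0297% to 0.0496% in Shengsimai. Without the 5 genes with the most counts in Zhoumai18, the shares were 0.158% to 0.177%, 0.00996% to 0.0155% and 0.00944% to 0.0126% in the same order. Between 147 and 150 of the 150 genes reached 1 FPKM in a Zhoumai18 library, against 27 to 46 in Baipimai libraries and 27 to 31 in Shengsimai libraries.

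The label "expressed only in Zhoumai18" held for part of the list. All 150 genes reached 1 FPKM in at least 3 libraries, the minimum for a gene to be called expressed here, and in 144 every Zhoumai18 library did. In 41 genes all 18 libraries of the other varieties were under 0.1 FPKM, and in 97 genes all were under 1 FPKM. The other 53 genes reached 1 FPKM in some library of Baipimai or Shengsimai, 18 reached 5 FPKM and 7 reached 10 FPKM. The genes are therefore called genes higher in Zhoumai18 throughout. The median over the 150 genes of the mean FPKM was 7.18 in Zhoumai18 (range 1.38 to 727), against 0.169 in Baipimai (0 to 70.1) and 0.110 in Shengsimai (0 to 52.6). In all 150 genes the 9 Zhoumai18 libraries lay above the other 18, which holds for 1.31% of the 54157 expressed high-confidence genes and follows closely from the rule.

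**Figure D1:**
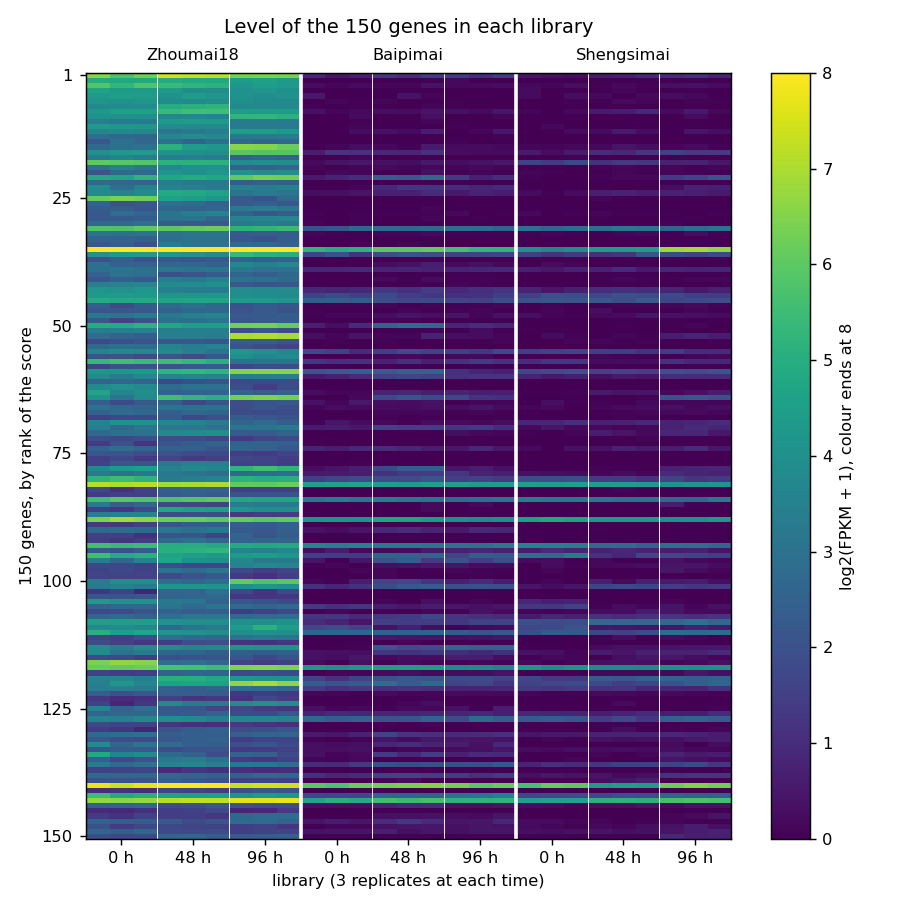
Level of the 150 genes (rows, highest score at the top) in each of the 27 libraries (columns, 3 replicates at each time), as log2(FPKM + 1), with colour ending at 8. The 9 Zhoumai18 columns are brighter in every row, while a few rows, such as that of rank 35, are also bright in Baipimai and Shengsimai.

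The gene at the head of the list was TraesCS1B01G423400, with a score of 4.94. In Zhoumai18 it had 92.8, 52.3 and 75.1 FPKM at 0 h, 174, 153 and 145 FPKM at 48 h, and 81.2, 82.5 and 80.7 FPKM at 96 h. Its lowest, median and highest libraries were 0.357, 1.06 and 1.65 FPKM in Baipimai, and 0.192, 0.629 and 1.14 FPKM in Shengsimai. A weak signal was thus present in all 18 libraries of the other varieties, with 360 counts in Baipimai and 203 in Shengsimai beside 33202 in Zhoumai18.

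The second gene, TraesCS6D01G390700 (score 4.40), was close to absent outside Zhoumai18. It had 29.1, 28.3 and 26.6 FPKM at 0 h, 29.4, 27.9 and 28.0 FPKM at 48 h and 20.3, 23.0 and 19.7 FPKM at 96 h in Zhoumai18. Only 7 counts fell on it in the 9 Baipimai libraries and 0 in the 9 Shengsimai libraries, beside 8453 in Zhoumai18. Its neighbour by identifier, TraesCS6D01G390800, was also on the list and is described with the contrast of Baipimai and Shengsimai.

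TraesCS7B01G256000 (score 4.04, deposited symbol LOC109747974) was steady at a low level in the other varieties. It had 57.2, 38.7 and 55.1 FPKM at 0 h, 41.2, 37.0 and 34.3 FPKM at 48 h and 17.9, 21 and 18.9 FPKM at 96 h in Zhoumai18. Its highest library was at 0.310 FPKM in Baipimai and 0.271 FPKM in Shengsimai. A second gene of the list with the same symbol, TraesCS7D01G351300, was far higher in all varieties, at 156 to 376 FPKM in Zhoumai18, 52.2 to 88.4 FPKM in Baipimai and 19.7 to 86.2 FPKM in Shengsimai.

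TraesCS3B01G067600 (score 4.0, LOC109776732) had 23.5, 19.3 and 19.6 FPKM at 0 h, 18.8, 14.8 and 14.5 FPKM at 48 h and 15.5, 17.1 and 15.1 FPKM at 96 h in Zhoumai18. It had 0 counts in all 9 Baipimai libraries and 6 counts in Shengsimai, beside 3021 in Zhoumai18. TraesCS1D01G114400 (score 3.81, LOC109732580) ranged over 14.2 to 21 FPKM in Zhoumai18, 0 to 0.449 FPKM in Baipimai and 0 to 0.203 FPKM in Shengsimai. Both genes kept a narrow range in Zhoumai18, with the highest library less than 2 times the lowest.

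The other 5 of the first 10 genes had lower levels in Zhoumai18 than the gene at the head, and traces elsewhere. TraesCS3A01G087800 (score 3.74) ranged over 12.7 to 17.0 FPKM in Zhoumai18, 0 to 0.0969 FPKM in Baipimai and 0 to 0.159 FPKM in Shengsimai. TraesCS2B01G170400 (score 3.74) had 13.2, 13.6 and 13.8 FPKM at 0 h, 30.2, 33.1 and 36.2 FPKM at 48 h and 12.8, 12.9 and 13.0 FPKM at 96 h in Zhoumai18, with at most 0.0903 FPKM in Baipimai and 0.0170 FPKM in Shengsimai. A middle time above both others also marked TraesCS7B01G355900 and TraesCS5A01G508100.

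TraesCS7B01G355900 (score 3.72) ranged over 42.1 to 46.4 FPKM at 48 h in Zhoumai18 and over 18.4 to 23.0 FPKM at the other times, with at most 0.408 FPKM in Baipimai and 0.856 FPKM in Shengsimai. TraesCS5A01G508100 (score 3.29, LOC109750318) had 9.88, 8.62 and 9.0 FPKM at 0 h, 19.3, 19.9 and 19.4 FPKM at 48 h and 9.08, 9.02 and 9.05 FPKM at 96 h in Zhoumai18, with 7 counts in Baipimai and 0 in Shengsimai. TraesCS3B01G012100 (score 3.56) was instead highest at 96 h, with 15.5, 15.5 and 15.2 FPKM at 0 h, 11.9, 12.3 and 11.1 FPKM at 48 h and 36.5, 37.2 and 32.5 FPKM at 96 h in Zhoumai18, against at most 0.254 FPKM in Baipimai and 0.183 FPKM in Shengsimai. In each of these genes 1 time stood above both others with no overlap, while in TraesCS7B01G355900 and TraesCS5A01G508100 the libraries at 0 h and 96 h overlapped.

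No count at all was recorded in Baipimai and Shengsimai for 12 of the 150 genes. The 0 was in Baipimai alone for 6 more genes and in Shengsimai alone for 18 more. These 12 genes were chosen for naming after their values were seen. TraesCS1B01G051400 (LOC9270452) had 245 to 556 counts per Zhoumai18 library, 3348 in all, and TraesCS5B01G454400 had 93 to 709, 3289 in all. Against a floor of 3 counts over the 9 libraries of a variety, scaled for depth, they were at least 1103.5-fold and at least 1084-fold higher in Zhoumai18.

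The other 10 such genes were TraesCS1A01G048400, TraesCS1A01G051200, TraesCS2A01G161900, TraesCS2B01G170500, TraesCS3B01G067800, TraesCS4A01G475300, TraesCS6A01G103700, TraesCS6A01G391900, TraesCS6B01G224400 and TraesCS7A01G426200. Their lower bounds on the same floor ran from 91.2-fold for TraesCS2A01G161900, which had 12 to 59 counts per Zhoumai18 library, to 535.9-fold for TraesCS2B01G170500, which had 88 to 265. Such bounds cover counting error only. None of the 12 was among the first 10 by score, because the score also grows with the level in Zhoumai18.

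At the other end of the range stood genes read strongly in all 3 varieties, and those described were named after their values were seen. TraesCS7B01G417700 (LOC109778290, score 2.14) had the highest level of the list, with 467, 542 and 1273 FPKM as its lowest, median and highest libraries in Zhoumai18, 30.8, 37.1 and 66.6 FPKM in Baipimai, and 11.4, 20.5 and 119 FPKM in Shengsimai. TraesCS6D01G384200 (LOC109761903, score 1.01) ranged over 94.6 to 214 FPKM in Zhoumai18, 25 to 47.6 FPKM in Baipimai and 22.8 to 50.9 FPKM in Shengsimai. TraesCS7D01G058400 (LOC109768633, score 1.48) ranged over 64.0 to 139 FPKM in Zhoumai18, 20.1 to 24.6 FPKM in Baipimai and 16.3 to 22.4 FPKM in Shengsimai. These genes differed in amount between varieties and were read in every library, unlike the 12 genes with no count elsewhere.

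The last genes inside the 150 were TraesCS7A01G069000 (score 0.974) and TraesCS3D01G211400 (0.972, LOC109744413), and the first outside were TraesCS6B01G122100 (0.971) and TraesCS7B01G289800 (0.958). The end of the list is therefore a place on a continuous scale. TraesCS7A01G069000 ranged over 1.80 to 5.30 FPKM in Zhoumai18, 0.251 to 0.578 FPKM in Baipimai and 0.213 to 0.660 FPKM in Shengsimai. TraesCS3D01G211400 had 2.16 to 5.28 FPKM in Zhoumai18 and 0 counts in Baipimai, while in Shengsimai all of its 126 counts were at 96 h, where its libraries had 0.840, 0.593 and 0.628 FPKM.

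The group that set the score differed from gene to gene. The lowest Zhoumai18 group was 0 h for 50 genes, 48 h for 26 and 96 h for 74. The highest group of the other varieties was Baipimai at 48 h for 61 genes, Shengsimai at 96 h for 21, Baipimai at 96 h for 17, Shengsimai at 48 h for 16, Shengsimai at 0 h for 12 and Baipimai at 0 h for 11, and 12 genes had all 6 at 0.

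Replicates left out of the choice showed the same order of varieties. When the 150 genes were chosen on replicates 2 and 3, on 1 and 3, or on 1 and 2, the score in the replicate left out was above 0 in 150 of 150 genes each time, beside 2.97%, 2.92% and 3.09% of the expressed high-confidence genes. The lowest of these scores were 0.472, 0.329 and 0.106, and 143, 144 and 145 of the genes chosen were on the full list. Such replicates come from the same varieties and the same experiment. These scores therefore show only that replicates agreed, and they do not test the difference between varieties.

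The same rule applied to the other varieties gave shorter upper ends. Scores of at least 1 were reached by 143 genes in Zhoumai18, against 52 in Baipimai and 80 in Shengsimai. The 150th score was 0.972 in Zhoumai18, 0.472 in Baipimai and 0.587 in Shengsimai, and the highest was 4.94, 3.83 and 4.69 in the same order. No test was made of these counts, and no gene of the Zhoumai18 list was on either of the others.

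The genes were spread unevenly over the genomes. The B genome held 70 of them (46.7%, beside 33.3% of expressed high-confidence genes), the A genome 59 (39.3%, beside 33.4%) and the D genome 21 (14%, beside 33.3%). Chromosome 3B alone held 23 (15.3%, beside 5.37%), or 7.91 per 1000 expressed genes. It was followed by 5B with 14, 7B with 13, 7A with 11 and 3A with 9, whereas 2D, 3D and 4D held 2 each. Every chromosome held at least 2 of the genes.

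**Figure D2:**
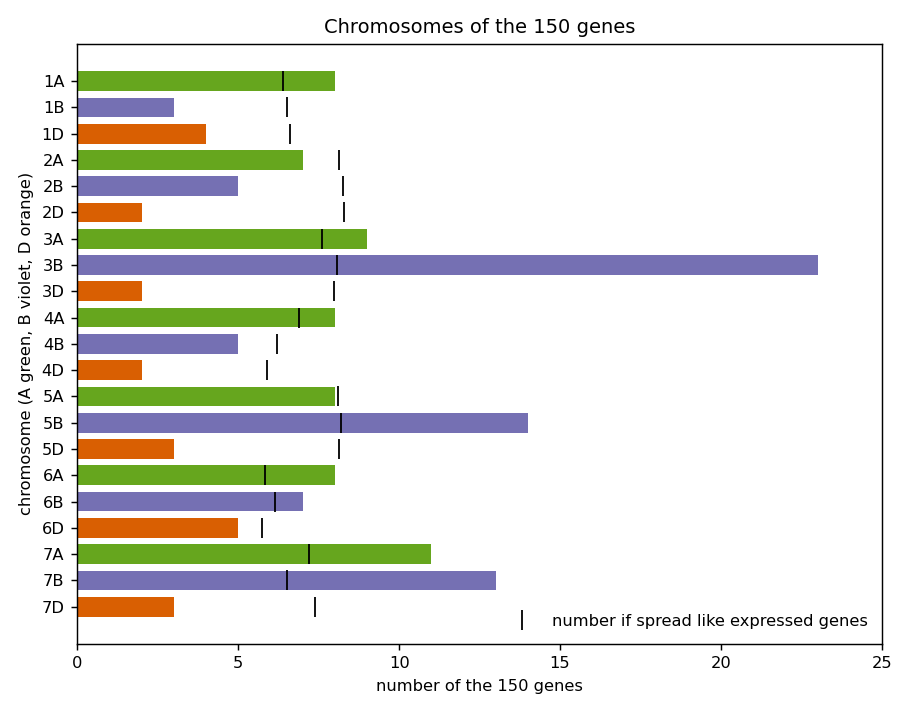
Number of the 150 genes (bars) on each of the 21 chromosomes, coloured by genome, with a black tick at the number each chromosome would hold if the genes were spread like all expressed high-confidence genes. Chromosome 3B stands out with 23 genes, 5B and 7B follow with 14 and 13, and all 7 D chromosomes lie below their ticks.

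Wheat identifiers of this kind are numbered along a chromosome, in steps of 100, and neighbours were read from the identifiers. Whether their order follows position everywhere was not checked against an annotation here. Distances in bases are not given. With genes joined when they were at most 10 identifiers apart, 31 of the 150 (20.7%) fell in 13 runs, and the other 119 stood alone. The longest run held 4 genes, TraesCS3B01G011300, TraesCS3B01G011900, TraesCS3B01G012000 and TraesCS3B01G012100. Runs of 3 lay at TraesCS3B01G067400 to TraesCS3B01G067800, TraesCS5B01G263600 to TraesCS5B01G264100 and TraesCS5B01G454000 to TraesCS5B01G454600, and the other 9 were pairs.

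Genes of the longest run differed in level and in time course. The first, TraesCS3B01G011300, had 45.1, 60.1 and 54.5 FPKM at 0 h, 53.9, 58.7 and 61.7 FPKM at 48 h and 26.5, 25 and 25.1 FPKM at 96 h in Zhoumai18, against 6.09 to 9.59 FPKM in Baipimai and 5.36 to 9.32 FPKM in Shengsimai. TraesCS3B01G011900 (LOC109740160) had 3.32, 5.82 and 5.31 FPKM at 0 h, 17.2, 14.9 and 18 FPKM at 48 h and 15.7, 13.6 and 14.8 FPKM at 96 h in Zhoumai18, against at most 0.255 FPKM in Baipimai and 0.106 FPKM in Shengsimai. TraesCS3B01G012000 ranged over 3.66 to 9.36 FPKM in Zhoumai18, with 3 counts in Baipimai and 1 in Shengsimai. So the first gene of the run was read clearly in all varieties, and the other 3, with TraesCS3B01G012100 given above, were near 0 outside Zhoumai18.

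With gaps of up to 50 identifiers allowed, this run joined others into a chain of 10 genes at the start of chromosome 3B, from TraesCS3B01G001600 to TraesCS3B01G012100. This stretch was singled out after its values were seen. The first 121 identifiers of the chromosome held 39 expressed genes, and 10 of them were on the list, so 6.67% of the list lay among 0.0720% of the expressed genes. Its other 29 expressed genes were mixed. Of these, 19 (65.5%) were above the higher of the other varieties in Zhoumai18 by any amount, beside 52.8% of all expressed high-confidence genes outside the list, with a median difference of 0.37 beside 0.03 on the log2(FPKM + 1) scale. By this measure 3 were higher in Zhoumai18 by at least 1 than in each other variety (10.3%, beside 3.86% of all those outside the list), 2 were lower by as much (6.90%, beside 2.06%) and the rest were neither. No test of these shares was made. TraesCS3B01G006400 was the most opposed, with a mean level of 0.23 in Zhoumai18 on that log2 scale, against 3.99 in Baipimai and 3.50 in Shengsimai.

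**Figure D3:**
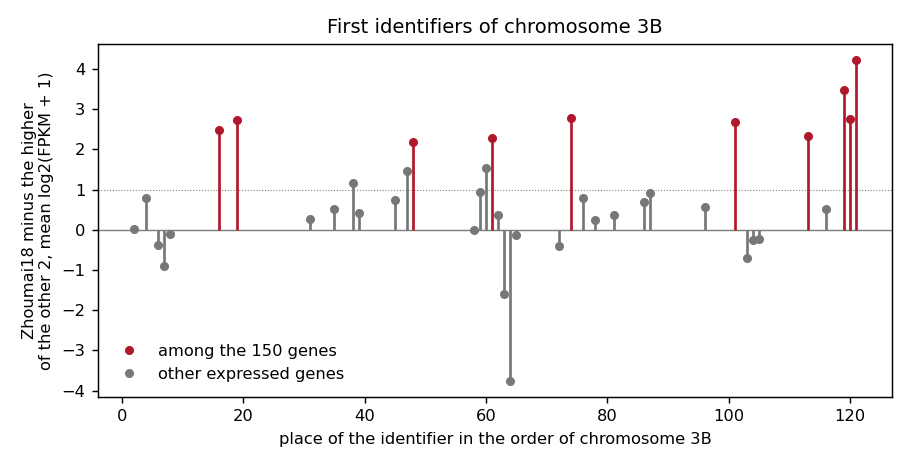
Mean log2(FPKM + 1) over 3 times in Zhoumai18 minus that in the higher of the other varieties, for the 39 expressed genes among the first 121 identifiers of chromosome 3B (x axis, place by identifier). The 10 genes of the list (red) have differences above 2, and most of the 29 other expressed genes (grey) lie between -1 and 1, with TraesCS3B01G006400 as the lowest.

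Most near neighbours of the 150 genes were not set apart in Zhoumai18 from both other varieties. Within 5 identifiers on either side there were 684 other expressed genes, of which 52 (7.60%) were higher in Zhoumai18 than in each other variety by at least 1 on the log2(FPKM + 1) scale, 22 (3.22%) were lower by as much and 610 (89.2%) were neither. Among all expressed high-confidence genes outside the list, 3.86% were higher and 2.06% lower. Directly beside a gene of the list, 17 of 141 expressed neighbours were higher (12.1%) and 5 lower (3.55%), and within 10 identifiers 73 of 1246 were higher (5.86%) and 36 lower (2.89%). The share higher in Zhoumai18 and the share lower were both smaller in wider windows, and even directly beside the genes most neighbours were not higher.

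Symbols deposited with the table named 41 of the 150 genes, under 37 different symbols, and nearly all of these are locus numbers with no function attached. They allowed a comparison with genes of the same symbol on the other genomes, called copies here. A shared symbol does not show that genes are homoeologues: LOC109740160, the symbol of a 3B gene of the list, was also on 7A and 7D. For 19 genes of the list, another gene with the same symbol lay on a chromosome of the same number in a different genome. Of 23 such copies outside the list, 22 were expressed, belonging to 17 genes of the list: 19 of these 22 copies were neither higher nor lower in Zhoumai18 by 1 on the log2(FPKM + 1) scale, 2 were higher and 1 was lower. Copies that are themselves on the list, and genes of the same symbol elsewhere than on the matching chromosomes, are left out of this tally. Reads of near-identical copies may be divided between them by the counting, so the level of any one copy is uncertain.

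The genes and copies given next were picked with their values in view. The first is TraesCS3B01G067600, with 0 counts in Baipimai. Its copy TraesCS3D01G054900 had 12.4, 15.1 and 18.8 FPKM as lowest, median and highest libraries in Zhoumai18, 9.85, 13.7 and 17.2 FPKM in Baipimai and 9.17, 11.8 and 15.3 FPKM in Shengsimai. The D copy was thus read in every library of all varieties, with overlapping ranges, while the B copy was read almost only in Zhoumai18.

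Its neighbour TraesCS3B01G067800 (LOC109776816) had no count outside Zhoumai18 and 1.36 to 4.80 FPKM in it. The D copy, TraesCS3D01G054700, ranged over 1.30 to 7.64 FPKM in Zhoumai18, 2.76 to 7.49 FPKM in Baipimai and 2.08 to 5.14 FPKM in Shengsimai. For TraesCS3B01G067400 (LOC109776818), which ranged over 2.49 to 5.47 FPKM in Zhoumai18, 0.577 to 0.900 FPKM in Baipimai and 0.569 to 0.980 FPKM in Shengsimai, the D copy TraesCS3D01G054400 ranged over 1.07 to 2.02 FPKM, 2.10 to 2.93 FPKM and 1.87 to 2.78 FPKM in the same varieties. The 3 genes of this run on 3B therefore had expressed copies in the same neighbourhood of 3D, none of them higher in Zhoumai18 by 1 on the log2 scale.

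TraesCS6D01G136300 (score 3.24, LOC109780728) is a D-genome gene with the same contrast. It had 8.62, 13.1 and 19.1 FPKM as lowest, median and highest libraries in Zhoumai18, at most 0.102 FPKM in Baipimai and at most 0.120 FPKM in Shengsimai. Its copy TraesCS6B01G175200 ranged over 5.28 to 15.7 FPKM in Zhoumai18, 7.66 to 14.6 FPKM in Baipimai and 6.73 to 20.4 FPKM in Shengsimai.

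TraesCS1D01G037300 (score 2.59, LOC109783706) had a copy with the opposite order. In Zhoumai18 the gene had 5.62, 6.69 and 6.97 FPKM at 0 h, 33.6, 20.6 and 18 FPKM at 48 h and 93.9, 91.4 and 71.5 FPKM at 96 h, against at most 0.482 FPKM in Baipimai and 0.352 FPKM in Shengsimai. The B copy TraesCS1B01G045700 ranged over 1.95 to 14.8 FPKM in Zhoumai18, below all libraries of Baipimai (34.2 to 83.1 FPKM) and Shengsimai (29.1 to 51.3 FPKM). The A copy TraesCS1A01G035800 ranged widely in Zhoumai18, from 3.20 to 180 FPKM, and overlapped Baipimai (29.6 to 77.2 FPKM) and Shengsimai (19.9 to 46.5 FPKM).

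Fewer copies outside the list were high together with a gene of the list. Under LOC109780092, TraesCS2A01G076600 and TraesCS2D01G075200 were both on the list. In mean log2(FPKM + 1), Zhoumai18 was 2.35 and 2.79 above the higher of the other varieties. For their copy TraesCS2B01G091400, outside the list, it was 1.01 above, with 0.196 to 5.58 FPKM in Zhoumai18. On chromosomes of different numbers, the symbol LOC109745926 covered 3 genes of the list, TraesCS4A01G498000, TraesCS6B01G473800 and TraesCS2A01G110300, and the unplaced gene TraesCSU01G146600. Their ranges in Zhoumai18 were 24.7 to 79.7, 20.9 to 79.5, 10.3 to 46.6 and 20.4 to 77.8 FPKM in that order. In Baipimai they reached at most 5.17, 6.0, 4.03 and 10.1 FPKM, and in Shengsimai at most 3.25, 0.0713, 0.819 and 2.25 FPKM. All 3 genes of the list were highest at 96 h in Zhoumai18 and at 48 h in Baipimai, and reads shared among the 4 cannot be told apart from reads of each. TraesCS4B01G237600 (LOC109733277) ranged over 17.3 to 95.4 FPKM in Zhoumai18, 0.626 to 4.78 FPKM in Baipimai and 1.84 to 3.26 FPKM in Shengsimai. Its copy TraesCS4D01G238800, outside the list, had a lowest, median and highest library of 1.73, 8.81 and 140 FPKM in Zhoumai18, 2.23, 3.06 and 19.0 FPKM in Baipimai and 0.499, 2.35 and 2.85 FPKM in Shengsimai, so the ranges of that copy overlapped.

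**Figure D4:**
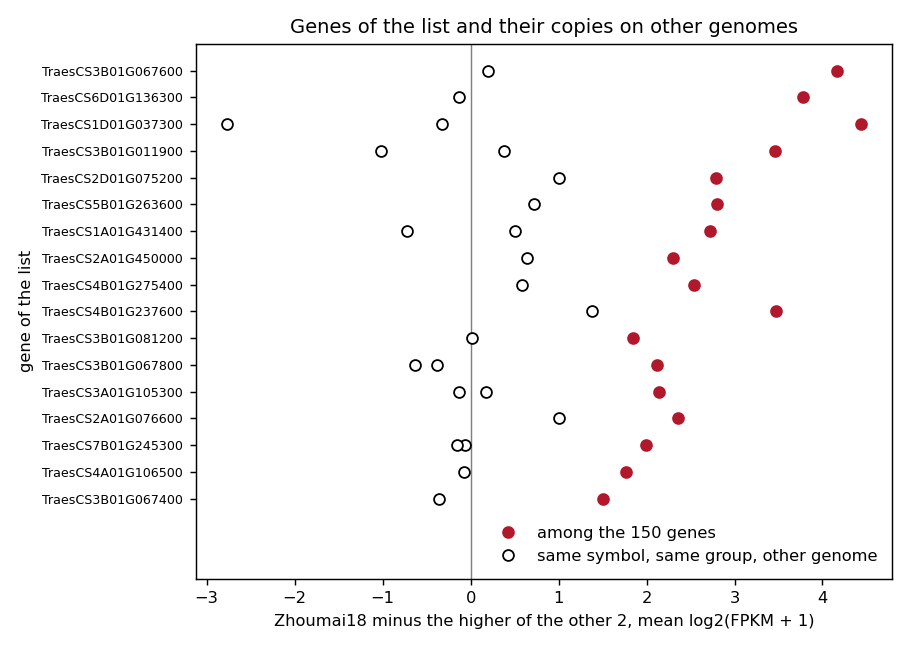
Mean log2(FPKM + 1) in Zhoumai18 minus that in the higher of the other varieties (x axis) for the 17 genes of the list with an expressed copy outside it under the same symbol on the matching chromosome of another genome. Red points are the genes of the list and open circles the 22 copies, with 1 copy drawn beside 2 genes. Most open circles lie near 0 and the lowest belongs to TraesCS1D01G037300.

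Levels within Zhoumai18 changed with time, which the rule did not fix in direction. The highest time was 0 h for 52 genes, 48 h for 59 and 96 h for 39. The median range over the 3 times was 0.98 on the log2(FPKM + 1) scale, with 78 genes under 1 and 15 at 2 or more. It was 0.89 over the 32581 high-confidence genes whose lowest level in Zhoumai18 was at least the lowest found among the 150 genes. Over replicates, the median coefficient of variation of FPKM was 11.6%, 9.85% and 8.37% at the 3 times in order. That measure is on another scale than the range and is not set against it.

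In edgeR's quasi-likelihood test on the counts, with Benjamini-Hochberg adjustment over 68658 genes and a threshold of 0.05, 43 of the 150 genes rose between 0 h and 48 h in Zhoumai18 (28.7%, beside 39.4% of all genes tested) and 56 fell (37.3%, beside 33.4%). Between 48 h and 96 h, 32 rose (21.3%, beside 36.7%) and 65 fell (43.3%, beside 38.1%). From 0 h to 96 h, 37 rose (24.7%, beside 44.4%) and 73 fell (48.7%, beside 37.8%). The rule left out genes near 0 at any Zhoumai18 time, whether rising or falling, while all genes tested include them. The minimum for testing was reached by 104 of the 150 genes only with the Zhoumai18 libraries. The shares are therefore printed beside those of all genes without being read against them, and their differences were not tested. The median log2 fold changes were -0.15, -0.29 and -0.41, beside 0.09, -0.02 and 0.12 for all genes.

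The split at the first step changed with the fit, which here changes the test and the values together. With limma on log2(FPKM + 1), 67 genes rose and 48 fell between 0 h and 48 h, and with limma on log2(FPKM + 0.1) 56 rose and 34 fell, so that more rose than fell. The median log2 fold change of the 150 genes at that step was 0.09 and 0.11 in those fits, against -0.15 in the count test and -0.10 in the count test without replicate 1 at 0 h. On the FPKM scale the median of all genes was itself shifted, to 0.17 with 1 added and 0.30 with 0.1 added, against 0.09 in the count test. The medians of the 150 genes lay below those of all genes in both limma fits. How many of all genes rose or fell in the limma fits was not counted. From 0 h to 96 h limma on log2(FPKM + 0.1) gave 45 rises and 57 falls, and falls outnumbered rises in every fit.

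Over both steps together, 26 genes rose and then fell (17.3%, beside 17.3% of all genes tested), 17 fell and then rose (11.3%, beside 11.3%), 17 fell in both steps (11.3%, beside 13.3%) and 7 rose in both (4.67%, beside 13.7%). Neither step passed the threshold in 21 genes (14%, beside 7.89%).

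**Figure D5:**
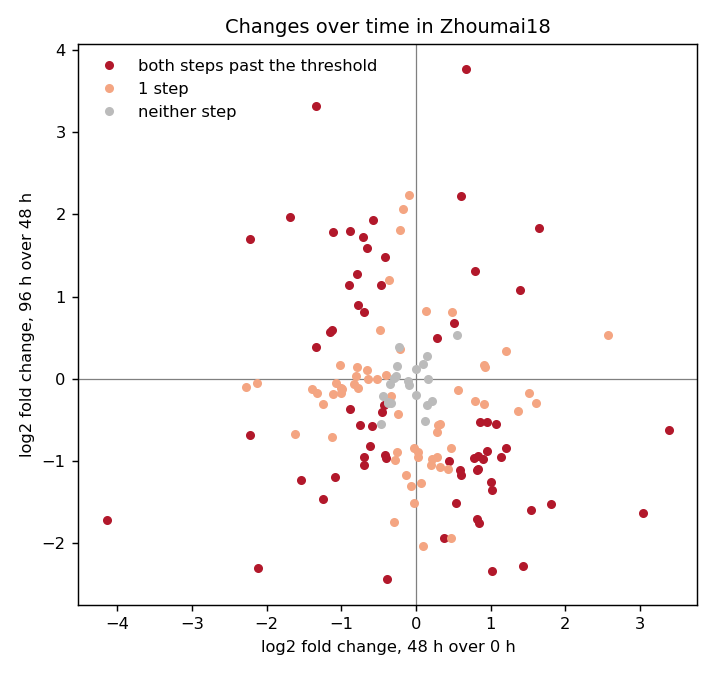
Log2 fold change in Zhoumai18 from 0 h to 48 h (x axis) and from 48 h to 96 h (y axis) for the 150 genes, from edgeR's quasi-likelihood fit on counts. Points are coloured by how many steps passed an adjusted p of 0.05; 21 genes passed at neither, and the point farthest left is TraesCS7B01G337300.

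The largest fall in the first step was that of TraesCS7B01G337300. It had 7.0, 7.0 and 5.68 CPM (counts scaled for library size, here with TMM, the trimmed mean of M values) at 48 h, against 106, 126 and 116 CPM at 0 h, with no overlap. The log2 fold change was -4.15 (SE 0.145, adjusted p = 1.1e-19 in edgeR's quasi-likelihood test with Benjamini-Hochberg adjustment). In the other varieties this gene did not exceed 0.295 FPKM in any library. At 96 h it was lower still, at 2.20, 1.73 and 2.02 CPM.

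TraesCS7D01G383700 fell from a scattered start. It had 2.08, 1.53 and 0.943 CPM at 48 h, against 12, 4.49 and 5.60 CPM at 0 h, a log2 fold change of -2.27 (SE 0.326, adjusted p = 7.6e-07, edgeR with Benjamini-Hochberg adjustment). One library at 0 h was more than 2 times as high as the others, and the times did not overlap.

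The largest rises in the first step were those of TraesCS6A01G384500 and TraesCS4A01G025600. TraesCS6A01G384500 had 5.86, 4.80 and 4.63 CPM at 48 h, against 0.468, 0.359 and 0.613 CPM at 0 h, a log2 fold change of 3.40 (SE 0.280, adjusted p = 4.1e-09, edgeR with Benjamini-Hochberg adjustment). TraesCS4A01G025600 had 22.8, 23.1 and 24.6 CPM at 48 h, against 2.95, 2.42 and 3.17 CPM at 0 h, a log2 fold change of 3.04 (SE 0.173, adjusted p = 5.0e-15, same test). Both were lower again at 96 h, at 3.08 to 3.72 CPM and 6.93 to 8.01 CPM in that order, still above their levels at 0 h.

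In the second step TraesCS2B01G244600 rose most. It had 242, 251 and 224 CPM at 96 h, against 18.8, 17.7 and 16.5 CPM at 48 h, a log2 fold change of 3.76 (SE 0.224, adjusted p = 1.5e-14, edgeR with Benjamini-Hochberg adjustment). TraesCS7B01G336700 had 32.0, 25.2 and 27.7 CPM at 96 h, against 3.07, 2.47 and 2.94 CPM at 48 h, a log2 fold change of 3.32 (SE 0.226, adjusted p = 2.5e-13, same test). TraesCS7B01G336700 lies 6 identifiers before TraesCS7B01G337300, the gene with the largest early fall, and the pair differed in direction at the second step: at the first step both had lower CPM at 48 h than at 0 h with no overlap, TraesCS7B01G336700 with 3.07, 2.47 and 2.94 CPM against 5.34, 8.12 and 7.95 CPM.

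The largest falls in the second step were those of TraesCS7A01G443600 and TraesCS5A01G192700. TraesCS7A01G443600 had 7.20, 7.69 and 7.48 CPM at 96 h, against 48.2, 40.6 and 32.5 CPM at 48 h, a log2 fold change of -2.44 (SE 0.127, adjusted p = 7.9e-16, edgeR with Benjamini-Hochberg adjustment). TraesCS5A01G192700 had 1.03, 0.961 and 1.27 CPM at 96 h, against 5.97, 6.19 and 4.42 CPM at 48 h, a log2 fold change of -2.34 (SE 0.291, adjusted p = 2.3e-07, same test). TraesCS5A01G192700 also stood at 1.98 to 3.77 CPM at 0 h, so its middle time was the highest.

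The contrast of Baipimai with Shengsimai gives the differences between the varieties in which the 150 genes are low. The rule limited the highest level in these varieties but not the direction between them. Of the 150 genes, 104 reached the minimum for testing only with the Zhoumai18 libraries, so the shares called are printed beside those of all genes without being read against them. At 0 h, 19 genes were higher in Baipimai (12.7%, beside 24.1% of all genes tested) and 12 lower (8%, beside 23.5%), in edgeR's quasi-likelihood test with Benjamini-Hochberg adjustment. At 48 h, 47 were higher (31.3%, beside 33.4%) and 15 lower (10%, beside 28.4%). At 96 h, 23 were higher (15.3%, beside 31.8%) and 21 lower (14%, beside 31.0%). The median log2 fold change at 48 h was 0.49, beside 0.03 for all genes, and it was 0.478 with DESeq2. It was 0.08 without replicate 3 of Baipimai, so it rested on that library. With limma on log2(FPKM + 0.1) it was 0.235, beside 0.163 for all genes. With limma on log2(FPKM + 1) it was 0.05, beside 0.0945 for all genes. Adding 1 shrinks differences between levels near 0, so that value is on another scale than the 0.49.

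At 48 h, 100, 98 and 119 of the 150 genes had a count in the Baipimai libraries, against 92, 90 and 93 in the Shengsimai libraries. Fits without 1 library at a time put 40 to 52 genes higher in Baipimai, the 40 without the library with 119. Of the 150 genes, 71 passed at no time, and the share of all genes tested that did so was not counted. Low counts limit these calls, because a difference was not detectable at this depth where both varieties had a few counts. Whether low counts account for the 71 genes was not tested.

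At all 3 times, 6 genes were higher in Baipimai than in Shengsimai, beside 7.63% of all genes tested, and 3 were lower, beside 7.75%. The 6 were TraesCS1B01G203000, TraesCS3A01G105300, TraesCS3B01G034700, TraesCS6B01G473800, TraesCS6D01G390800 and TraesCS7B01G289900, and the 3 were TraesCS3A01G199200, TraesCS5D01G118200 and TraesCS7B01G383000. They were named after their values were seen. TraesCS6D01G390800 had 0.306, 0.213 and 0.349 FPKM at 0 h, 0.902, 1.03 and 0.705 FPKM at 48 h and 0.458, 0.864 and 0.834 FPKM at 96 h in Baipimai, against at most 0.0227 FPKM in Shengsimai. Every Baipimai library was above every Shengsimai library, with 479 counts against 7, and all Zhoumai18 libraries were higher again, at 3.47 to 8.50 FPKM. TraesCS6D01G390800 reached the minimum for testing only with the Zhoumai18 libraries.

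The reverse order was seen for TraesCS5D01G118200. It had 1.44, 0.950 and 0.519 CPM in Baipimai at 0 h, against 4.43, 4.09 and 4.31 CPM in Shengsimai, a log2 fold change of -2.15 (SE 0.182, adjusted p = 9.9e-11, edgeR with Benjamini-Hochberg adjustment). At 48 h its log2 fold change was -1.84 and at 96 h it was -1.66, so the 3 differences were close in size. Zhoumai18 had 14.5 to 27.1 CPM of this gene.

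TraesCS7B01G383000 had log2 fold changes of Baipimai over Shengsimai of -2.33, -2.59 and -2.31 at the 3 times in order. It ranged over 0.0553 to 0.384 FPKM in Baipimai and 0.648 to 1.13 FPKM in Shengsimai, with no overlap at any time. Its Zhoumai18 libraries ranged over 4.33 to 16.2 FPKM.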

How the data were processed

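RNA-seq libraries of wheat spikes were compared in 9 groups of 3 replicates. The counts and the FPKM values per gene were made and deposited by the authors. The aligner, counter and strand setting are not given in the sources used here. From a table of 153699 genes, 1 malformed line was left out, and 0 columns were unmatched to a sample. The phenotype table was not used. The genes and lists were chosen with earlier results of these data known.

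Genes with at least 1 FPKM in 3 libraries were called expressed, 68658 of the whole table were tested, and 54157 were high-confidence. Counts were tested with edgeR 4.0.16 in R 4.3.3 (quasi-likelihood, TMM, 1 fit over all groups, Benjamini-Hochberg adjustment), after a check on simulated data. In that check few genes changed and all genes shared a single spread, so it does not cover data in which most genes change, as here. TMM factors were 0.714 to 1.16. Replicates differed by more than counting noise, with a chi-square per gene of 2.95 to 14.7.

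Genes named were the first 10 by score, the ends of each run of at least 4 genes, the 2 largest rises and 2 largest falls per time step without overlap, and the 2 genes on each side of the end of the list. Others are said to be named after their values were seen. Product groups could not be used, because 0 identifiers and 0 symbols of the list were found in the RefSeq table. Alternatives were DESeq2 1.42.0, limma 3.58.1 on log2(FPKM + 1) and log2(FPKM + 0.1), no filter, the compared groups alone, a replicate block, a 2-fold minimum and leaving out each library, other scales for the score, and other gaps, windows and list lengths. Holding out a replicate, the comparison of copies and the window of 1 identifier were added after seeing the data.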

Additional observations from a re-analysis of the deposited data

Results flagged for a closer look

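In 9 of the 150 genes Baipimai was above Shengsimai at one time and below it at another, each time past the threshold of edgeR's quasi-likelihood test with Benjamini-Hochberg adjustment and with no overlap of libraries. Among all genes tested, 19.1% did so. The difference between the times was not tested itself. The genes were TraesCS1A01G177300, TraesCS1D01G452300, TraesCS3A01G455900, TraesCS3B01G010100, TraesCS4B01G237600, TraesCS6A01G008000, TraesCS6D01G384200, TraesCS7B01G245300 and TraesCS7B01G417700. TraesCS7B01G417700 had 40.0, 40.3 and 43.0 CPM in Baipimai at 48 h, against 14.5, 14.8 and 15.1 CPM in Shengsimai, and 35.6, 27.1 and 27.7 CPM in Baipimai at 96 h, against 79.5, 85.4 and 71.1 CPM in Shengsimai. Its log2 fold changes of Baipimai over Shengsimai were 1.47 at 48 h and -1.38 at 96 h. TraesCS4B01G237600 had 5.55, 6.71 and 6.43 CPM in Baipimai at 48 h, against 3.07, 3.33 and 2.88 CPM in Shengsimai, and 1.80, 1.19 and 1.01 CPM in Baipimai at 96 h, against 4.68, 4.37 and 4.97 CPM in Shengsimai. In Zhoumai18 its level rose at both steps, with 29.3 to 31.3 CPM at 0 h, 50.7 to 55.1 CPM at 48 h and 129 to 137 CPM at 96 h.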

How the results depend on the processing

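Of the 150 genes, 101 were kept with log2(FPKM + 0.1) in the score, 110 with TMM-scaled CPM in place of FPKM, 136 with the lowest and highest library in place of group means, and 143 to 145 without 1 replicate. Demanding at least 2-fold left 18 rises and 25 falls between 0 h and 48 h, 21 and 33 between 48 h and 96 h, 23 and 39 between 0 h and 96 h, 7 genes lower in Baipimai than in Shengsimai at 0 h and 12 higher at 96 h. With limma on log2(FPKM + 1), 67 genes rose between 0 h and 48 h. With limma on log2(FPKM + 0.1), 34 fell in that step and 31 were higher in Baipimai at 0 h. The cause was not tested beyond the demand for 2-fold, which by construction removes calls. A gap of 50 identifiers put 33.3% of the genes in runs, and directly beside the genes 12.1% of neighbours were higher in Zhoumai18. The 8 genes named for their changes over time kept direction and call under every alternative run, and the other counts stayed within 1.5 times. Leaving out 1 library at a time gave 39 to 43 rises and 47 to 55 falls from 0 h to 48 h, 29 to 33 and 58 to 61 from 48 h to 96 h, and 33 to 37 and 66 to 74 from 0 h to 96 h. For Baipimai against Shengsimai it gave 15 to 19 genes higher and 10 to 14 lower at 0 h, 40 to 52 and 12 to 16 at 48 h, and 17 to 24 and 18 to 22 at 96 h. Samples of one number correlated at -0.0906 to 0.137 in their deviations over all comparisons. For Baipimai against Shengsimai at 48 h they were at 0.0422 to 0.127, above samples of different numbers at -0.1 to 0.00318. For Zhoumai18 from 0 h to 96 h they were at -0.0906 to -0.0453, below samples of different numbers at -0.0189 to 0.0704. Elsewhere these ranges overlapped, so the direction differed between comparisons, and whether a number marks a pairing was not tested. With the replicate block 42 genes rose and 57 fell from 0 h to 48 h, and no count of calls moved by over 1.5 times. Counts of a few reads in Baipimai and Shengsimai limit the contrast between them.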
